A study of Mus musculus with 24 samples.

Results

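The genes described here are 10 transporters that carry sugars, peptides and amino acids across the enterocyte, the absorptive cell of the gut: Slc5a1, Slc2a2, Slc2a5, Slc15a1, Slc6a19, Slc7a9, Slc3a1, Slc7a7, Slc7a8 and Slc1a1. They were chosen by name with earlier results of these data known, as were the further gene lists below. Their symbols were matched to the mouse Entrez identifiers of the deposited tables. All 10 were found among 36528 gene identifiers, and all 10 passed the filter on low counts that left 15429 genes to test. Polyadenylated RNA was sequenced from 24 samples of organoids grown from mouse small intestine, which are cultures of intestinal epithelium made from primary tissue. The study asks how gene expression in this epithelium changes when Frizzled 7, a Wnt receptor, is blocked with the peptide dFz7-21. The samples form 6 groups of 4: DMSO vehicle, dFz7-21 or Fz7-21S, collected at 6 h or at 24 h. The labels give no dose, medium, strain or age, they say nothing of Fz7-21S beyond its name, and they do not state whether replicates were separate cultures or animals. The spread behind the p-values is therefore that between these samples and may be technical.

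Absorption of a meal runs through carriers on the 2 faces of the enterocyte. At the brush border, sodium or proton gradients drive glucose, peptides and amino acids into the cell, while fructose enters by facilitated diffusion. At the basolateral face, facilitative carriers and amino acid exchangers pass these nutrients on to the blood. Several of the amino acid carriers are built from a light chain that transports and a heavy chain that brings it to the membrane. Within the gut epithelium, the carriers of the brush border are known mainly from the enterocytes of the villus rather than from the crypt base.

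Each library held between 20.4 M and 33.1 M counts. Levels below are CPM (counts per M of the library's TMM-scaled total), unless the deposited RPKM is named. Epithelial Epcam lay between 1497 and 2459 CPM in the 24 libraries, and the leukocyte marker Ptprc had 0 to 6 reads. The summed level of 6 immune markers, Ptprc among them, was low but differed at 24 h. It was 4.74 to 6.38 CPM with DMSO, 2.87 to 6.53 with Fz7-21S and 8.83 to 9.43 with dFz7-21. Of these markers, Itgam was higher with dFz7-21 than with DMSO (log2 fold change 0.79, edgeR adjusted p = 0.00413), and Csf1r was not called (edgeR adjusted p = 0.251). The summed level of 10 mesenchymal markers was 223 and 179.7 CPM in DMSO 6 h replicates 1 and 2 and 1003 in dFz7-21 24 h replicate 3, against 4.99 to 13.9 in the other 21 libraries. Without those 3 libraries, each of the 100 results for a transporter (10 genes in 10 comparisons) stayed on the same side of the threshold.

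At 24 h all 10 transporters were higher with dFz7-21 than with DMSO, by 1.2-fold for Slc7a7 to 2.35-fold for Slc2a2. The call was an adjusted p below 0.05 in edgeR's quasi-likelihood test, which 35.9% of all tested genes met in either direction and 18.2% met as higher. The median log2 fold change was 0.57 for the 10 transporters and -0.01 for all 15429 genes. In 9 of the 10 the dFz7-21 and DMSO libraries did not overlap, a separation seen in 38.4% of all tested genes. All 10 were also higher than with Fz7-21S at 24 h (33.7% of all genes called, 16.5% as higher), with a median of 0.64, and all 10 were apart there, against 25.9% of all genes. These 2 comparisons share the dFz7-21 libraries, and the 10 genes were chosen with earlier results of these data known.

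**Figure D1:**
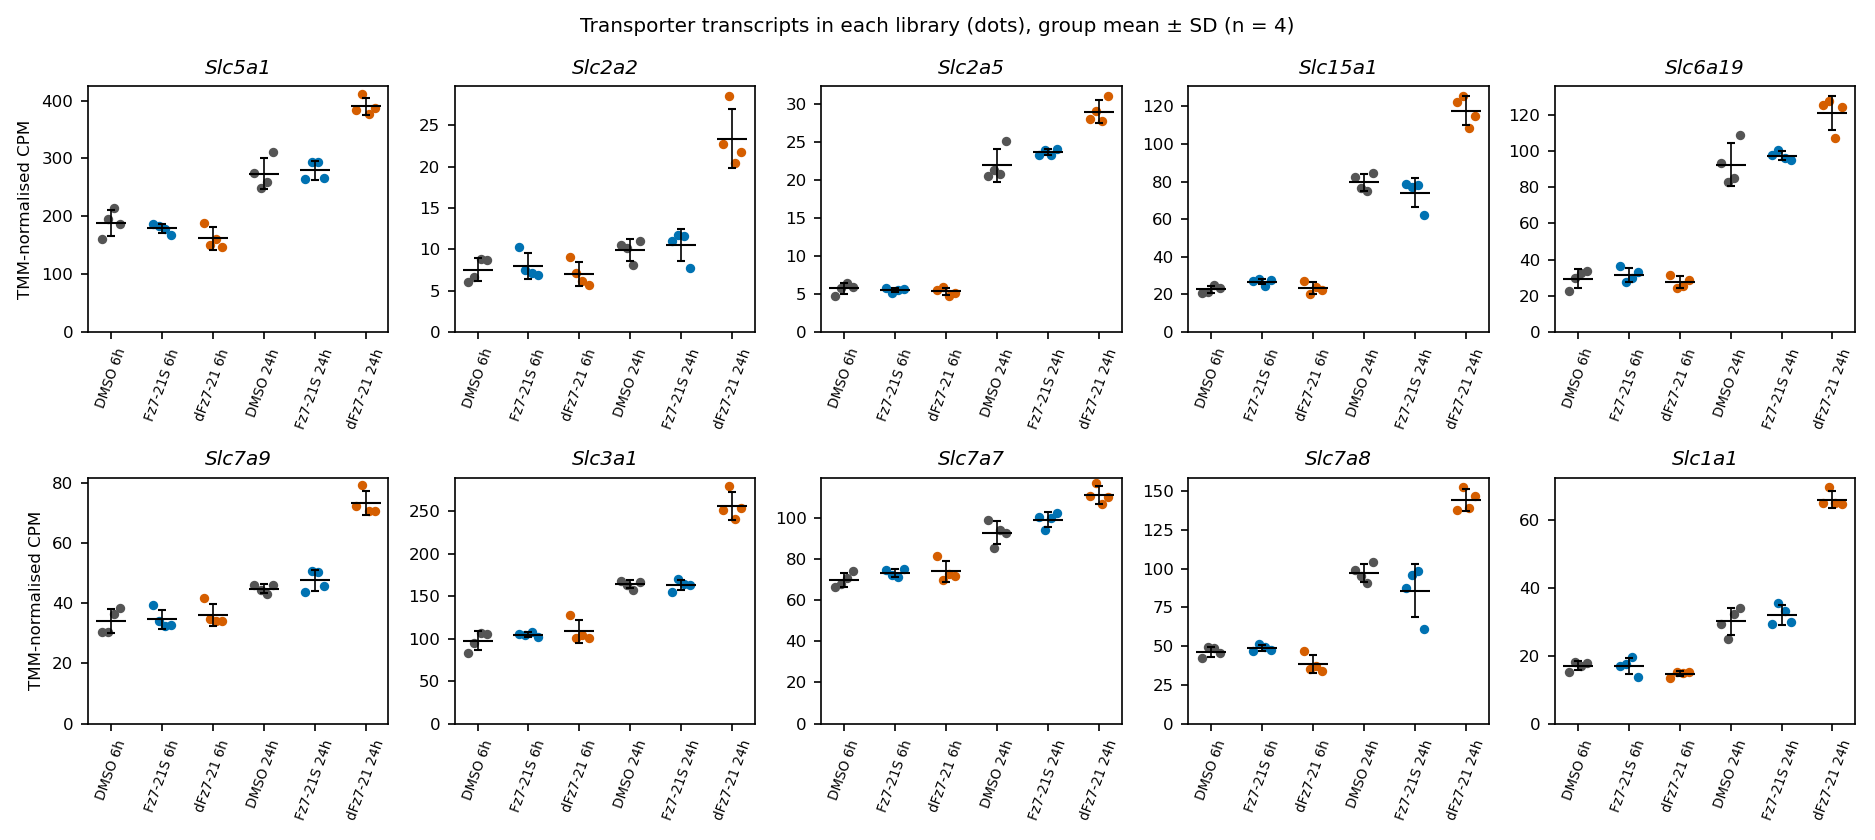
CPM of each transporter (vertical axis, linear from 0) in each of the 24 libraries by group, with dots for libraries and black bars for the mean ± SD of 4. At 24 h the dFz7-21 libraries lie above those of DMSO and Fz7-21S, except that 1 DMSO library overlaps the dFz7-21 range for Slc6a19.

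Among the sugar carriers, Slc2a2 rose most. Slc2a2 (chr3:28697903-28728361, plus strand, GRCm38) encodes GLUT2, the facilitative carrier through which glucose and fructose leave the cell. At 24 h it stood at 10.5, 10.1, 8.08 and 11 CPM in DMSO replicates 1 to 4, at 11.1, 11.8, 11.6 and 7.70 with Fz7-21S, and at 22.7, 28.6, 20.5 and 21.8 with dFz7-21. All 4 dFz7-21 libraries were above all 8 others. The mean was 23.4 ± 3.60 CPM (SD, n = 4) with dFz7-21 and 9.95 ± 1.30 (n = 4) with DMSO, a log2 fold change of 1.23 ± 0.17 (SE, edgeR adjusted p = 2.46e-06). Against Fz7-21S the log2 fold change was 1.15 ± 0.17 (edgeR adjusted p = 8.29e-06).

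Slc5a1 (chr5:33104219-33162699, plus strand), the sodium-coupled carrier SGLT1 that brings glucose and galactose in from the lumen, was the most abundant sugar carrier. Its 24 h libraries held 275, 249, 259.7 and 310.3 CPM with DMSO, 264, 294, 294 and 266 with Fz7-21S, and 385, 412, 377 and 388 with dFz7-21. The lowest dFz7-21 library was above the highest of the others. The mean rose 1.43-fold over DMSO, from 273 ± 26.8 to 390.1 ± 15.2 CPM (SD, n = 4 each; log2 0.51 ± 0.08, edgeR adjusted p = 2.58e-05).

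Slc2a5 (chr4:150119344-150144168, plus strand) encodes GLUT5, the brush border carrier for fructose. Its 24 h values were 20.5, 21.3, 20.8 and 25.2 CPM with DMSO, 23.3, 24.0, 23.4 and 24.1 with Fz7-21S, and 28.1, 29.1, 27.8 and 31.1 with dFz7-21. The dFz7-21 libraries were apart from both controls, but the step over DMSO was small beside that of Slc2a2, at 1.32-fold (log2 0.40 ± 0.08, edgeR adjusted p = 0.000457). Tested against a minimum fold of 1.2 with edgeR's glmTreat, it was no longer called (adjusted p = 0.0913, the highest of 16 alternatives, which began at 1.25e-06). Over Fz7-21S it rose by 0.29 ± 0.08 (edgeR adjusted p = 0.00834), and glmTreat gave an adjusted p of 0.519, the highest of 16 alternatives from 0.000392.

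Slc15a1 (chr14:121459621-121505254, minus strand) encodes PEPT1, which takes up short peptides with protons and was the only peptide carrier among the 10. At 24 h it stood at 82.3, 76.4, 75.1 and 84.4 CPM with DMSO, at 78.6, 77.2, 78.3 and 62.5 with Fz7-21S, and at 122, 126, 108 and 115 with dFz7-21. The dFz7-21 libraries were the 4 highest, and Fz7-21S replicate 4 was the lowest. Slc15a1 was 1.48-fold higher than with DMSO (log2 0.56 ± 0.08, edgeR adjusted p = 9.29e-06) and 1.59-fold higher than with Fz7-21S (edgeR adjusted p = 1.26e-06).

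Of the amino acid carriers of the brush border, Slc1a1 (chr19:28835135-28913960, plus strand) changed most. It encodes a high-affinity sodium-coupled carrier of glutamate, aspartate and cysteine. Its 24 h libraries held 29.5, 25.0, 32.3 and 34.0 CPM with DMSO, 29.5, 35.6, 33.2 and 30.0 with Fz7-21S, and 65.1, 69.9, 65.0 and 64.7 with dFz7-21. The 2 control groups overlapped each other, and every dFz7-21 library was far above them. The mean rose 2.19-fold over DMSO, from 30.2 ± 3.92 to 66.2 ± 2.47 CPM (SD, n = 4 each; log2 1.13 ± 0.09, edgeR adjusted p = 1.68e-09), the smallest p of the 10.

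Slc6a19 (chr13:73679745-73700780, minus strand) encodes the main sodium-coupled carrier of neutral amino acids. At 24 h it stood at 93.4, 83.0, 85.0 and 109 CPM with DMSO, at 97.6, 101, 95.9 and 95.2 with Fz7-21S, and at 125, 128, 107 and 124 with dFz7-21. DMSO replicate 4 lay above dFz7-21 replicate 3, the only overlap of the kind among the 10 genes. The rise over DMSO was 1.31-fold (log2 0.39 ± 0.11, edgeR adjusted p = 0.00619), and it was not called against a minimum fold of 1.2 (glmTreat adjusted p = 0.198, the highest of 16 alternatives from 0.000627). Against Fz7-21S the log2 fold change was 0.31 ± 0.11 (edgeR adjusted p = 0.0257), and without dFz7-21 24 h replicate 2 the adjusted p was 0.0550 (0.0014 to 0.47 over 16 alternatives).

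Slc7a9 and Slc3a1 encode the light and heavy chain of the brush border exchanger for cystine and basic amino acids, the pair whose loss causes cystinuria. Slc7a9 (chr7:35448727-35466034, plus strand) stood at 46.2, 44.3, 43.0 and 46.0 CPM with DMSO at 24 h, at 43.6, 50.7, 50.3 and 45.7 with Fz7-21S, and at 72.4, 79.3, 70.6 and 70.8 with dFz7-21. Slc3a1 (chr17:85028347-85064241, plus strand) stood at 168, 163, 158 and 167 CPM with DMSO, at 156, 170.1, 165 and 164 with Fz7-21S, and at 252, 280.2, 241 and 255 with dFz7-21. Both chains were apart from both controls. Slc7a9 rose 1.63-fold over DMSO (log2 0.71 ± 0.08, edgeR adjusted p = 2.86e-07) and Slc3a1 rose 1.57-fold (log2 0.65 ± 0.07, edgeR adjusted p = 1.93e-07). Slc3a1 shares 601 of its 2271 exon bases (GENCODE M21) with Prepl on the opposite strand, and the strand setting of the counting is not given in the sources used here. If the counting ignored strand, reads of the 2 genes in the shared bases cannot be told apart. Prepl itself was higher by 0.38 on the log2 scale (edgeR adjusted p = 5.79e-05).

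The letters before the starts of these exchanger genes and of Slc7a8, a light chain described below, are shown for 1 reason. The members' only matches to 3 of the motifs searched lie there. All 10 transporters rose at 24 h, and a link between letters and rise was not tested. The sequences are from RefSeq on GRCm38.p6, 250 bases before a transcript start, written 5′ to 3′ on the strand of the gene, and capitals mark the motif matches. They lie at chr17:85028097-85028346 (plus strand, Slc3a1), chr7:35448842-35449091 (plus strand, 1 of 2 starts listed for Slc7a9) and chr14:54781887-54782136 (minus strand, Slc7a8).
Slc3a1: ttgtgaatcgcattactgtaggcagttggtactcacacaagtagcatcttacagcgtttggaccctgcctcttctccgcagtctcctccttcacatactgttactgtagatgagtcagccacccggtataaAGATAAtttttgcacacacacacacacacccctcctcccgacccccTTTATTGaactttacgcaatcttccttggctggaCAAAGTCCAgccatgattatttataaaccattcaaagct
Slc7a9: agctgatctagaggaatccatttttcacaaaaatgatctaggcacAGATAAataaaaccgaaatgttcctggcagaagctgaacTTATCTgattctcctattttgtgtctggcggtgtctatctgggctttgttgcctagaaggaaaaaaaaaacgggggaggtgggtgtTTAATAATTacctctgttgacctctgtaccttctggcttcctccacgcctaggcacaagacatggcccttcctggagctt
Slc7a8: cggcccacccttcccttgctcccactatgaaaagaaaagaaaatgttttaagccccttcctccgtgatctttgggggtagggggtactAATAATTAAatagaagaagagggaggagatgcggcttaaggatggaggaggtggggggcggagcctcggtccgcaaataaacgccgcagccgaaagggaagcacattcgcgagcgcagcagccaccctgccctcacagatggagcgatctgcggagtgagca
The Slc3a1 stretch holds, in this order, the GATA letters AGATAA, the CDX letters TTTATNG and the HNF4 letters CAAAGTCCA. The Slc7a9 stretch holds AGATAA once on each strand and the HNF1 letters TTAATNATT, which the Slc7a8 stretch holds on the opposite strand.

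The 10 genes have 15 such windows among 32851 in the table, each with 250 bases before a start and 50 after it, and both strands were searched. CAAAGTCCA was found in 0.475% of all windows and, among the 10 genes, only in that of Slc3a1. TTAATNATT was found in 1.47% of all windows, and among the members in those of Slc7a9 and Slc7a8. TTTATNG was in 10.9% of all windows (Slc3a1 only among members) and AGATAA in 11.2% (Slc7a9, Slc3a1 and Slc7a7). The shorter HNF1 letters GTTAAT, which can overlap TTAATNATT, were in 7.10% (Slc3a1 just after the start, and Slc7a7), and the TCF/LEF letters CTTTGAT were in 3.73% of all windows and in none of the members' windows. A match describes these letters and is not a binding site.

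The ratio of light to heavy chain CPM within a library does not depend on the scaling. For Slc7a9 to Slc3a1 at 24 h it was between 0.271 and 0.275 in the DMSO libraries and between 0.278 and 0.293 with dFz7-21, apart but by a small step (mean log2 difference 0.06; exact permutation test, 4 against 4, two-sided p = 0.0286, the smallest it allows, 0.0429 adjusted over 6 tests). With Fz7-21S it was between 0.279 and 0.306, above all DMSO libraries and overlapping dFz7-21, a difference that was not tested. At 6 h the DMSO and dFz7-21 ratios overlapped (log2 difference -0.06, exact permutation p = 0.314). Any Prepl reads counted for Slc3a1 in the shared exon bases would enter these ratios.

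Slc7a7 and Slc7a8 encode light chains that pair with Slc3a2 (the heavy chain 4F2hc) at the basolateral face, and they are not its only partners. Slc7a7 (chr14:54369442-54420068, minus strand) exports basic amino acids in exchange for neutral ones with sodium, and its loss causes lysinuric protein intolerance. At 24 h it stood at 98.7, 85.3, 94.1 and 92.6 CPM with DMSO, at 100.5, 93.8, 99.8 and 102 with Fz7-21S, and at 111, 117, 107 and 109.9 with dFz7-21. The groups were apart, but this was the smallest rise of the 10, 1.2-fold over DMSO (log2 0.26 ± 0.05, edgeR adjusted p = 0.000575). It was not called against a minimum fold of 1.2 (glmTreat adjusted p = 0.687, the highest of 16 alternatives from 6.15e-06). Against Fz7-21S it was higher by 0.16 ± 0.05 on the log2 scale (edgeR adjusted p = 0.0230), a call lost without dFz7-21 24 h replicate 2 (adjusted p = 0.0508) and when only the libraries of those 2 groups were fitted (adjusted p = 0.149). Its adjusted p over 16 alternatives ran from 0.000519 to 1. Slc7a7 shares 232 of 3315 exon bases with Oxa1l on the opposite strand, whose log2 fold change was -0.00 (edgeR adjusted p = 0.989). Oxa1l had 2388 to 4690 counts a library. Any of its reads counted for Slc7a7 would enter the fold changes of Slc7a7 and its ratio to Slc3a2 below.

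Slc7a8 (chr14:54722215-54781886, minus strand) exchanges neutral amino acids. It stood at 98.9, 95.5, 90.7 and 105 CPM with DMSO at 24 h, at 87.7, 95.7, 98.4 and 60.9 with Fz7-21S, and at 138, 153, 139 and 147 with dFz7-21. The dFz7-21 libraries were apart from both controls, and Fz7-21S replicate 4 was again the lowest. Slc7a8 rose 1.48-fold over DMSO (log2 0.57 ± 0.11, edgeR adjusted p = 0.0002) and 1.68-fold over Fz7-21S (log2 0.75 ± 0.11, edgeR adjusted p = 8.44e-06).

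Their heavy chain Slc3a2 followed another pattern. It stood at 199.9, 183, 193 and 190.2 CPM with DMSO at 24 h, at 215, 219, 235 and 271 with Fz7-21S, and at 246, 255, 237 and 248 with dFz7-21. Both peptide groups lay above DMSO and overlapped each other. The log2 fold change was 0.36 ± 0.06 for dFz7-21 against DMSO (edgeR adjusted p = 2.18e-05) and 0.29 ± 0.06 for Fz7-21S against DMSO (edgeR adjusted p = 0.0171). Between dFz7-21 and Fz7-21S it was 0.07, with a 95% interval of -0.05 to 0.19. In the fit of only the DMSO and Fz7-21S libraries of 24 h, no gene was called.

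Relative to this heavy chain, the 2 light chains differed in opposite directions between dFz7-21 and DMSO. At 24 h the ratio of Slc7a8 to Slc3a2 ran from 0.469 to 0.550 with DMSO and from 0.559 to 0.600 with dFz7-21, a log2 difference of 0.20 (exact permutation p = 0.0286, adjusted 0.0429, n = 4 each). The ratio of Slc7a7 to Slc3a2 ran from 0.466 to 0.494 with DMSO and from 0.443 to 0.459 with dFz7-21, a log2 difference of -0.10 (exact permutation p = 0.0286, adjusted 0.0429). The DMSO and dFz7-21 groups were apart in both ratios. With Fz7-21S at 24 h both ratios lay mostly or wholly below DMSO. Slc7a7 to Slc3a2 was 0.467, 0.429, 0.424 and 0.377 there, 3 of 4 below all DMSO and all dFz7-21 libraries. Slc7a8 to Slc3a2 was 0.408, 0.437, 0.419 and 0.224, all below DMSO, where dFz7-21 was above it. The Fz7-21S ratios were not tested. At 6 h the signs were the other way: 0.18 for Slc7a7 to Slc3a2 (exact permutation p = 0.0286, adjusted 0.0429) and -0.18 for Slc7a8 to Slc3a2 (exact permutation p = 0.143, adjusted 0.171).

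**Figure D2:**
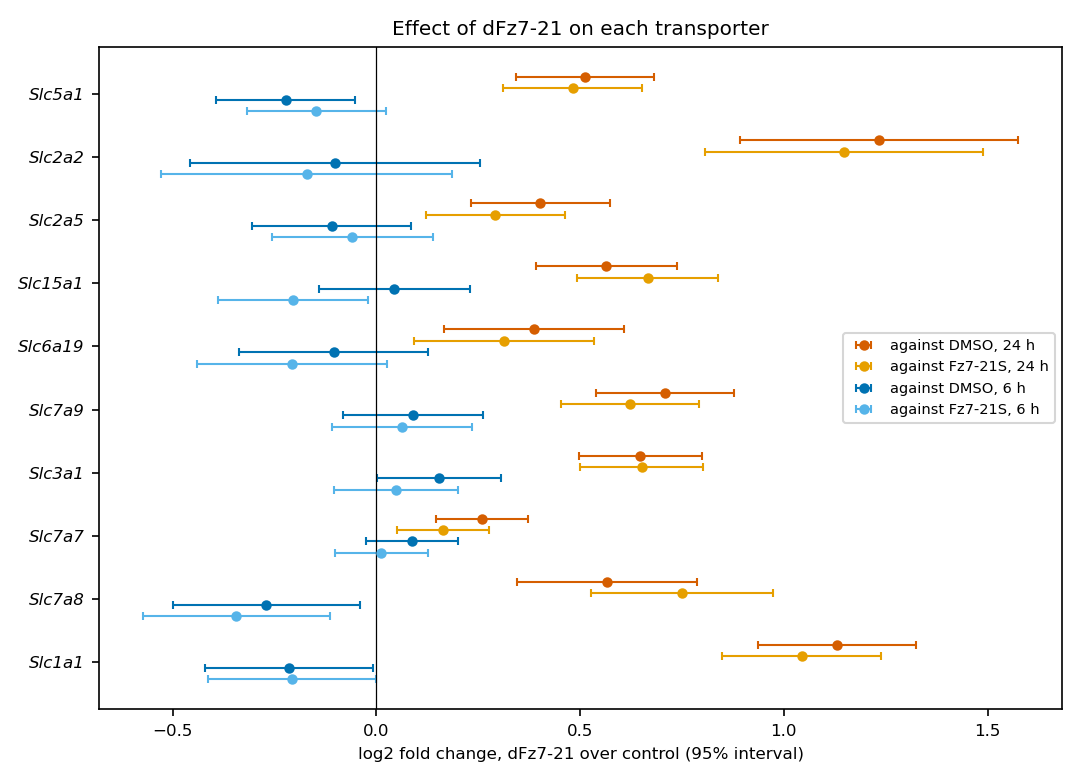
Log2 fold change of each transporter (points) with 95% intervals for dFz7-21 against DMSO and against Fz7-21S at 24 h and at 6 h. At 24 h every point is above 0, from 0.16 (Slc7a7 against Fz7-21S) to 1.23 (Slc2a2 against DMSO), and at 6 h the points lie on both sides of 0.

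At 6 h edgeR called none of the 10 transporters between dFz7-21 and DMSO, while 11% of all genes were called (6.05% higher and 5% lower). Of the 10, 4 had an unadjusted p under 0.05, and DESeq2 also called 0. The median log2 fold change was -0.10, against 0.01 for all genes. Slc5a1 held 160.0, 195, 214 and 186 CPM with DMSO and 189, 150.5, 160.1 and 147 with dFz7-21, overlapping (log2 -0.22, 95% interval -0.39 to -0.05, edgeR adjusted p = 0.0877). Slc1a1 held 15.3, 18.2, 16.9 and 17.9 CPM with DMSO and 13.6, 15.2, 14.8 and 15.2 with dFz7-21. Slc1a1 was the only one of the 10 whose groups did not overlap, as for 24.5% of all genes (log2 -0.21, interval -0.42 to -0.01, edgeR adjusted p = 0.19). The other 2 with an unadjusted p under 0.05 were Slc7a8 (log2 -0.27, interval -0.50 to -0.04) and Slc3a1 (log2 0.15, interval 0.00 to 0.31). Leaving out a single library changed these calls. Slc5a1 was called lower without DMSO 6 h replicate 1 (log2 -0.29, edgeR adjusted p = 0.0228), and Slc5a1 (-0.31, adjusted p = 0.0196) and Slc7a8 (-0.39, adjusted p = 0.0337) were called lower without dFz7-21 6 h replicate 1. Over 16 alternatives the adjusted p ran from 0.0196 to 1 for Slc5a1 and from 0.0331 to 1 for Slc7a8.

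Against Fz7-21S at 6 h edgeR again called none of the 10 (7.04% of all genes called, 3.21% higher and 3.83% lower), with a median of -0.16. Of the 10, 3 had an unadjusted p under 0.05, and none was apart between the groups, as 21.6% of all genes were. Slc15a1 (log2 -0.20, 95% interval -0.39 to -0.02, edgeR adjusted p = 0.211) was called lower when only the groups compared were fitted (adjusted p = 0.0422) and without the 3 libraries with mesenchymal transcripts, replicate 2 of DMSO at 24 h and replicate 4 of Fz7-21S at 24 h (0.0230). Its adjusted p ran from 0.0230 to 1 over 16 alternatives. DESeq2 called 1, Slc7a8, as lower (log2 -0.34, DESeq2 adjusted p = 0.0383). In edgeR the log2 fold change of Slc7a8 was -0.34 (95% interval -0.57 to -0.11, adjusted p = 0.0639), and without dFz7-21 6 h replicate 1 it was -0.46 (adjusted p = 0.0184; 0.0019 to 1 over 16 alternatives). That replicate held 47.1 CPM, and the other 3 dFz7-21 libraries held 35.2, 37.4 and 34.0.

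The effect of dFz7-21 against DMSO was larger at 24 h than at 6 h for 9 of the 10 transporters by the interaction term (edgeR adjusted p below 0.05; 13.2% of all genes called, 7.37% in this direction). The difference between the 2 times was 1.35 ± 0.14 for Slc1a1 (edgeR adjusted p = 3.17e-07) and 1.34 ± 0.24 for Slc2a2 (adjusted p = 0.000385) on the log2 scale. It was between 0.49 and 0.84 for the other 7 that were called. For Slc7a7 it was 0.17 (95% interval 0.01 to 0.33, edgeR adjusted p = 0.156), and without dFz7-21 6 h replicate 1 it was called (adjusted p = 0.0410; 0.0212 to 1 over 24 alternatives). For Slc6a19 (0.49 ± 0.15, adjusted p = 0.0361) leaving out a single library lost the call in 8 cases: DMSO 6 h replicates 2, 3 and 4, DMSO 24 h replicates 2 and 3, dFz7-21 24 h replicate 2 and dFz7-21 6 h replicates 2 and 3, with adjusted p from 0.0544 to 0.0923 (0.000896 to 0.235 over 24 alternatives).

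No transporter was called between Fz7-21S and DMSO. At 24 h none of the 10 was called by edgeR or by DESeq2, none had an unadjusted p under 0.05, and 0.259% of all genes were called, all as higher. None of the 10 was apart between these groups, against 5.26% of all genes. The widest intervals around 0 at 24 h were those of Slc2a2 (log2 0.09, 95% interval -0.26 to 0.43) and Slc7a8 (-0.18, interval -0.41 to 0.04). Without Fz7-21S 24 h replicate 1, 1390 genes were called in place of 40, and still none of the 10. At 6 h none of the 10 was called (0.00648% of all genes, DESeq2 also 0), none was apart (4.6% of all genes), and 1 had an unadjusted p under 0.05. That was Slc15a1, with 26.9, 28.4, 24.7 and 27.5 CPM with Fz7-21S and 20.8, 21.2, 25.0 and 23.6 with DMSO, overlapping (log2 0.25, interval 0.06 to 0.43, unadjusted p = 0.0105 and adjusted p = 0.999 in edgeR).

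The transporters differed between 6 h and 24 h by unequal steps. The change from 6 h to 24 h in DMSO was larger than that with dFz7-21 at 24 h for 7 of the 10, all but Slc2a2, Slc1a1 and Slc7a9, a difference that was not tested. In DMSO 9 of the 10 were higher at 24 h than at 6 h (52.2% of all genes called, 27.3% as higher), with a median log2 change of 0.79 against 0.00 for all genes, and the 2 times were apart for 9 of the 10 (53.1% of all genes). Slc2a5 rose 3.81-fold, from 4.77, 5.86, 6.52 and 5.93 CPM at 6 h to the 24 h values given above (edgeR adjusted p = 1.51e-14). Slc15a1 rose 3.52-fold (22.6 ± 1.99 to 79.6 ± 4.49 CPM, SD, n = 4 each; edgeR adjusted p = 3.36e-14) and Slc6a19 rose 3.13-fold (29.6 ± 5.03 to 92.5 ± 11.7 CPM). At the other end stood Slc7a9 (1.32-fold, edgeR adjusted p = 0.000243) and Slc7a7 (1.33-fold). Slc2a2 held 6.02, 6.66, 8.88 and 8.70 CPM at 6 h in DMSO, overlapping the 24 h libraries, and its 1.32-fold change missed the threshold (log2 0.40, 95% interval 0.05 to 0.75, edgeR adjusted p = 0.0519). It was called by DESeq2 (adjusted p = 0.0473) and by edgeR without DMSO 6 h replicate 3 (0.0332), DMSO 6 h replicate 4 (0.0379) or DMSO 24 h replicate 3 (0.0281), while its adjusted p over 16 alternatives ran from 0.0171 to 0.507.

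With Fz7-21S the 24 h against 6 h changes were 1.33-fold (Slc2a2) to 4.26-fold (Slc2a5), and all 10 were called (59.1% of all genes, 31% as higher), 9 of them apart (49.8% of all genes). The call of Slc2a2 (edgeR adjusted p = 0.0396) was lost in each of 6 fits without 1 library, Fz7-21S 6 h replicates 2, 3 and 4 and Fz7-21S 24 h replicates 1, 2 and 3, with adjusted p from 0.0892 to 0.12 (0.00251 to 0.161 over 16 alternatives). With dFz7-21 all 10 were called (59.9% of all genes, 29.8% as higher) and apart (60.7% of all genes), and the changes were 1.5-fold (Slc7a7) to 5.43-fold (Slc2a5), with a median log2 change of 1.82. The order of the steps differed between treatments: Slc1a1 rose 1.77-fold over time in DMSO and 4.50-fold with dFz7-21, and Slc2a2 1.32-fold and 3.33-fold, while Slc6a19 rose 3.13-fold and 4.41-fold. The genes with the largest response to dFz7-21, Slc2a2 and Slc1a1, were not those with the largest step over time in DMSO.

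**Figure D3:**
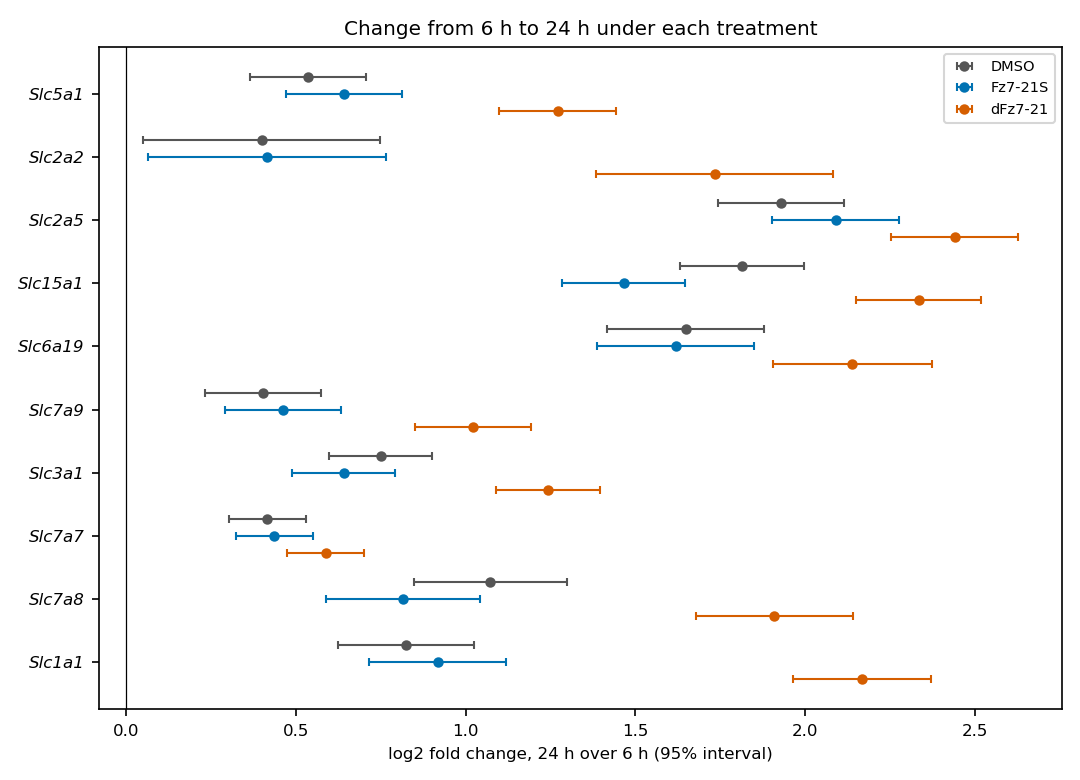
Log2 change from 6 h to 24 h of each transporter under DMSO, Fz7-21S and dFz7-21 (points, with 95% intervals). Slc2a5, Slc15a1 and Slc6a19 rise most in the controls, and Slc1a1 and Slc2a2 show the widest gap between dFz7-21 (2.17 and 1.73) and DMSO (0.82 and 0.40).

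Per transcript length, 2 genes stood well above the rest. On the deposited RPKM scale the DMSO libraries of 24 h held 70.6 ± 2.04 for Slc3a1 and 68.9 ± 6.92 for Slc5a1 (SD, n = 4), which overlapped, and then a gap to Slc15a1 at 25.3 ± 1.47. Slc15a1, Slc6a19 (21.5), Slc7a7 (21.4), Slc7a9 (19.3) and Slc7a8 (18.4) each overlapped the next in the order. Below another gap came Slc1a1 (8.07), which overlapped Slc2a5 (6.66), and last, apart from it, Slc2a2 at 3.84 ± 0.503. With dFz7-21 at 24 h the top was again Slc3a1 (112) and Slc5a1 (99.6), Slc7a9 (32.0) stood above Slc6a19 (28.5) and Slc7a7 (26.0), and Slc2a2 (9.14) and Slc2a5 (8.92) overlapped at the bottom. In DMSO at 6 h Slc5a1 (47.9) and Slc3a1 (42.3) already led, and Slc2a5 (1.76) was the lowest, apart from Slc2a2 (2.94). The levels of Slc3a1 may include reads of Prepl, and those of Slc7a7 reads of Oxa1l, from the shared exon bases.

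**Figure D4:**
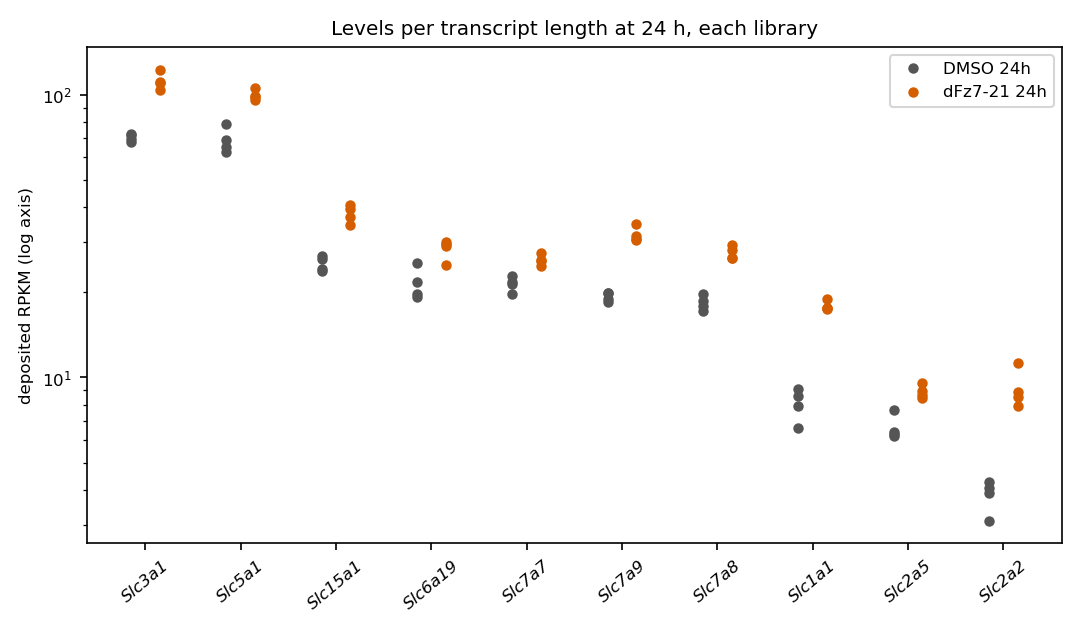
Deposited RPKM of each transporter in each DMSO and dFz7-21 library of 24 h (logarithmic axis, 4 dots a group). Slc3a1 and Slc5a1 lead in both groups, and Slc2a2 is last in DMSO at 3.84 on average and level with Slc2a5 with dFz7-21.

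Across the 24 libraries the log2 CPM of the 10 genes rose and fell together. Pearson's r over the 45 pairs ran from 0.757 (Slc2a2 and Slc2a5) to 0.991 (Slc2a5 and Slc6a19), with a median of 0.936. These points share the 6 groups, and with group means removed the r fell to a median of 0.551, from -0.04 (Slc7a7 and Slc1a1) to 0.845 (Slc2a2 and Slc7a9). The 2 chains Slc7a9 and Slc3a1 had an r of 0.973 over all libraries and 0.802 within groups. All of these are descriptions of 24 libraries, in which the genes share depth and collection time.

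A search of 10900 other genes, each with a log2 CPM averaging 2 or more, gave those whose log2 CPM was most like each transporter over the 24 libraries. Slc5a1 was most like Btnl1 (r = 0.981), Abcg5 and Scin, and for Slc2a2 Btnl6 and Cyp2d26 were among the 3 most like it. Slc2a5 was most like Coq9 (0.995), Cyp2c29 and Pdk2, and Slc6a19 most like Cyp2c29 (0.993), Cyp2b10 and Naaa. Slc15a1 was most like Abcg8 (0.992), Maob and Aoc1. These lists describe likeness alone. Slc3a1 was most like Anks4b (0.995), Myo1a and Mttp, and Slc7a9 most like Slc26a6 (0.985), Myo1a and Tkfc. Slc7a7 was most like Mep1b (0.984), Gstm3 and Clrn3, and Slc7a8 most like Reep6 (0.989), Aco1 and Atp1b1. Slc1a1 was most like H2-T18 (0.989), H2-T3 and Prpsap1, but H2-T18 and H2-T3 are near-identical copies whose reads may be split or lost.

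Other carriers moved in both directions. The counts of each list at 24 h are to be read against the 35.9% of all genes called and the 18.2% called higher. Of 18 other sugar carriers tested, 4 were higher and 1 was lower with dFz7-21 than with DMSO at 24 h (median log2 fold change 0.09). The share called higher was near that of all genes. Slc5a4b, a relative of Slc5a1, rose by 1.05 ± 0.11 (63.7 ± 0.606 against 30.7 ± 6.96 CPM; edgeR adjusted p = 8.42e-08), Slc2a9, a urate carrier, by 0.58, and Slc5a11, an inositol carrier, by 1.12. Of 31 other peptide and amino acid carriers, 8 were higher and 7 lower (median 0.04). Slc7a2, a carrier of basic amino acids, fell by 1.49 on the log2 scale (5.17 ± 0.614 against 14.6 ± 2.82 CPM, edgeR adjusted p = 2.05e-08). Slc6a8, the creatine carrier, rose by 0.54 and Slc6a20a, a proline carrier, by 0.77. At 6 h the same 31 counted 1 higher and 7 lower, against 6.05% of all genes higher and 5% lower.

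The genes that surround absorption in the enterocyte were mostly higher with dFz7-21 at 24 h. Of 15 brush border hydrolases, which split sugars and peptides before uptake, 14 were higher and 0 lower (median 0.69), among them the peptidases Naaladl1 (0.93 ± 0.06), Enpep (1.03 ± 0.09) and Xpnpep2 (0.69 ± 0.07). None of the 15 was called at 6 h. Of 14 genes of fructose and glucose metabolism, 10 were higher and 1 lower (median 0.45). Tkfc, a triokinase, rose by 0.70 and Pklr, a pyruvate kinase, by 0.52 on the log2 scale.

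Of 13 partners and regulators of the carriers, 8 were higher and 1 lower (median 0.23), among them the scaffold Nherf1 (0.41 ± 0.06) and Slc3a2. Of 9 genes that set the sodium gradient, 5 were higher and 3 lower (median 0.21). The sodium-proton exchanger Slc9a2 rose by 0.59, while the potassium channel Kcnq1 fell by 0.82 (edgeR adjusted p = 3.07e-10). Of 17 enterocyte transcription factors, 12 were higher and 2 lower (median 0.27), with Maf (0.92), Creb3l3 (0.88) and Nr1i2 (0.33) leading by p. The lists share members, and Slc3a2 is in both the carrier and the partner list.

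**Figure D5:**
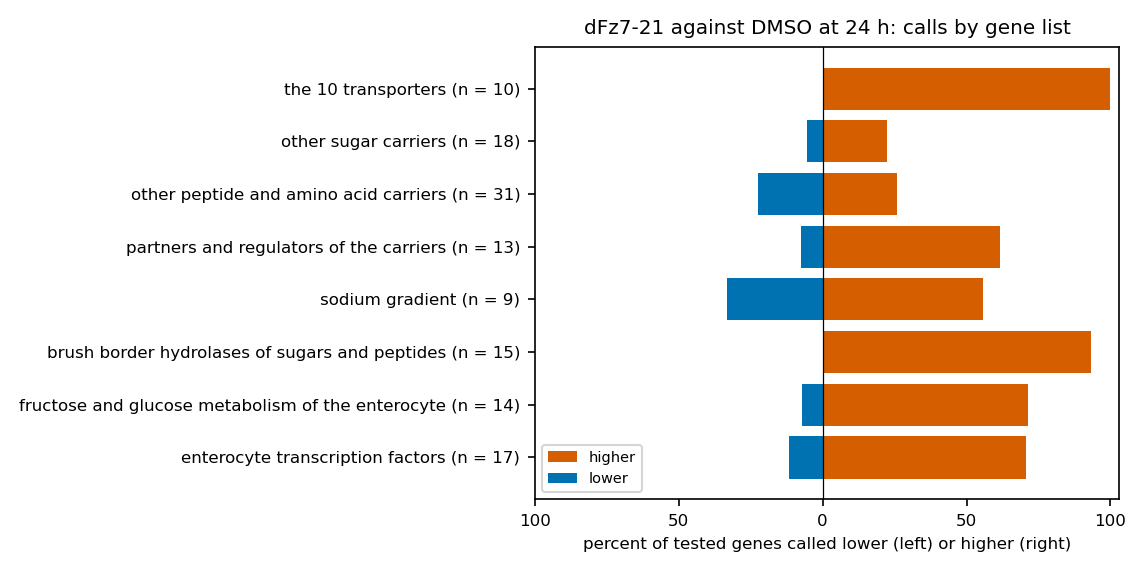
Percent of tested genes called higher (right) or lower (left) with dFz7-21 than with DMSO at 24 h, for the 10 transporters and 7 other lists, with the number tested in brackets. The 10 transporters are all higher and the hydrolases 14 of 15, while the other peptide and amino acid carriers split into 8 higher and 7 lower.

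Markers of cell types also differed between the groups. In CPM, the summed level of 8 enterocyte markers was 3755 to 4326 in the DMSO libraries of 24 h and 5827 to 6424 with dFz7-21, with no marker at 0. With Fz7-21S it was 4142 to 5713, overlapping DMSO and below dFz7-21. All 8 enterocyte markers were called higher with dFz7-21 than with DMSO, 4 of 8 were called higher than with Fz7-21S, and none was called between Fz7-21S and DMSO (median log2 fold change 0.42). At 6 h the DMSO and dFz7-21 sums were 3694 to 4639 and 4143 to 4867, overlapping. From 6 h to 24 h in DMSO, 4 of the 8 enterocyte markers were called higher and 3 lower (median log2 change 0.10). Over the same step 9 of the 10 transporters were called higher (27.3% of all genes). The summed level of 4 stem cell markers at 6 h was 1706 to 1868 with DMSO and 1153 to 1377 with dFz7-21. At that time 3 of the 4 were called lower than with DMSO, and no transporter was called. At 24 h the stem cell sum was 1823 to 2503 with DMSO, 1776 to 2098 with Fz7-21S and 162 to 244 with dFz7-21. Paneth cell markers summed to 3154 to 3739 with DMSO, 3314 to 4341 with Fz7-21S and 1953 to 2295 with dFz7-21, and 5 of 5 were called lower than with DMSO. Goblet cell markers summed to 2050 to 2258, 2161 to 2493 and 2532 to 3007 in the same order, and 5 of 6 were called higher. Proliferation markers summed to 1310 to 1413, 1001 to 1368 and 973 to 1043, and 3 of 5 were called lower. Of regional markers, 4 genes of the ileum summed to 158 to 174 with DMSO, 162 to 181 with Fz7-21S and 285 to 325 with dFz7-21. All of these ileal genes were called higher than with DMSO, and Fabp6 rose most (16.5 ± 2.81 to 121 ± 17.9 CPM, SD, n = 4 each). The 6 of the proximal small intestine summed to 177 to 203, 155 to 200.2 and 201 to 211, and they did not move as 1. Against DMSO, Gata4 (log2 fold change 0.27) and Lct (0.60) were called higher. Cybrd1 (-1.04) and Ada (-0.34) were called lower, and Slc40a1 and Onecut2 were not called. The part of these shifts in the transporters' change was not tested. In bulk RNA, more cells of a type and more RNA per cell cannot be told apart.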

How the data were processed

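The authors deposited, for each of the 24 samples, a table of 36528 Entrez genes with 2 values. The deposited count is the number of uniquely aligned reads per gene, and the deposited RPKM is that count per gene length, adjusted by a size factor per sample, per the file headers. The submitters' processing notes name GSNAP and GRCm38. For versions, annotation and strand setting the sources used here give nothing. RPKM entered no test and served only to compare levels between genes.

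The deposited counts went unchanged into edgeR 4.0.16 (R 4.3.3; TMM factors, filterByExpr, robust quasi-likelihood F test), in 1 fit of 24 libraries and 6 groups. The filter left 15429 genes, and the Benjamini-Hochberg adjustment ran over all of them. Fold changes are log2 ± SE with 95% intervals. On simulated data for dFz7-21 against DMSO at 24 h, in 15429 genes, 91 of 100 genes changed 1.5-fold and 100 of 100 changed 2-fold were called. The simulation changed no other gene and gave each gene the trended spread for its level, so the shares in the real data may differ. Depth was 20.4 M to 33.1 M counts, so that 3 counts are 0.0906 to 0.147 CPM. Replicates always differed by more than counting error (chi-square 2.77 to 88.9 per degree of freedom). Marker sums are plain CPM.

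All 10 transporters are named whatever their result, with the heavy chain Slc3a2, the 3 genes of each of 7 further lists with the smallest p, and the 3 genes most like each transporter. Some genes that this rule names are not reported here. The members and lists were chosen with earlier results of these data known. Alternatives were RLE factors, no filter, DESeq2 1.42.0, glmTreat, a replicate block, a fit of only the groups compared, and libraries left out.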

Additional observations from a re-analysis of the deposited data

Results flagged for a closer look

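In 6 of 60 sets of 4 libraries (10 genes in 6 groups), 1 library stood apart from the other 3 by more than Dixon's 95% critical value, which chance does in about 1 in 20 sets. Fz7-21S 24 h replicate 4 was low for Slc2a2 (7.70 CPM) and for Slc15a1 (62.5 CPM). In the dFz7-21 24 h group, replicate 3 was low for Slc6a19 (107 CPM) and replicate 2 was high for Slc1a1 (69.9 CPM). In the dFz7-21 6 h group, replicate 1 was high for Slc7a9 (41.7 CPM) and for Slc3a1 (128 CPM).

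The effect of dFz7-21 against DMSO differed between 6 h and 24 h by an interaction test for 9 transporters (edgeR adjusted p below 0.05). The log2 difference, 24 h minus 6 h, was 1.35 for Slc1a1, 1.34 for Slc2a2, 0.84 for Slc7a8, 0.74 for Slc5a1, 0.62 for Slc7a9, 0.52 for Slc15a1, 0.51 for Slc2a5, 0.49 for Slc3a1 and 0.49 for Slc6a19. The adjusted p ran from 3.17e-07 (Slc1a1) to 0.0361 (Slc6a19).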

How the results depend on the processing

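RLE factors left all 100 results for a transporter on the same side of the threshold. The labels state no pairing. Same-numbered libraries of a time deviated from their group means with correlations of -0.104 to 0.115, and those of different times with -0.516 to 0.320. Such correlations cannot settle whether the samples were paired. With the replicate block all 10 transporters were again called for dFz7-21 against DMSO at 24 h and 0 at 6 h, and all 100 calls were kept. DESeq2 kept 98, no filter 99, glmTreat 89 and the fit of only the groups compared 92. For dFz7-21 against DMSO at 6 h, where the fit of all groups called 0 transporters, 2 were called as lower when only the groups compared were fitted (Slc7a8 and Slc1a1) and 2 without 5 libraries (the 3 with mesenchymal transcripts, replicate 2 of DMSO at 24 h and replicate 4 of Fz7-21S at 24 h). Leaving out 1 library gave 0 to 2. For dFz7-21 against Fz7-21S at 6 h the numbers were 2 (only the groups compared), 1 (DESeq2), 2 (without 5 libraries) and 0 to 1 (leaving out 1 library), again in place of 0. For the change of the effect from 6 h to 24 h, glmTreat called 5 in place of 9, and leaving out 1 library gave 8 to 10. The cause was not tested. Leaving out 1 library gave 10 of 10 for dFz7-21 against DMSO at 24 h and 8 to 10 against Fz7-21S at 24 h. Over all genes, the fit of only the groups compared called 3640 in place of 1704 (dFz7-21 against DMSO at 6 h), 3159 in place of 1086 (against Fz7-21S at 6 h), 2305 in place of 5202 (against Fz7-21S at 24 h), 3418 in place of 2029 (change of the effect) and 0 in place of 40 (Fz7-21S against DMSO at 24 h). DESeq2 called 118 there, and glmTreat called 2047 in place of 5537 for dFz7-21 against DMSO at 24 h. The light to heavy chain ratios moved by less than 1 SD, and with 3 against 4 libraries their exact test cannot pass the threshold. For a transporter without a call, the 95% interval gives the range of change that 4 libraries a group leave.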
